A study of Homo sapiens with 47 samples.

Results

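The 2 mature microRNAs (miRNAs) cut from the miR-21 hairpin, hsa-miR-21-5p and hsa-miR-21-3p, were followed through small RNA sequencing of 2 human prostate cancer cell lines. They were taken by name and are 2 of the 1006 miRNA entries of the count table. PC-3 originates from a bone metastasis, and 22Rv1 is labelled as a line with androgen receptor expression. Each line was held for 24 h at 5, 2, 1, 0.5, 0.2 or 0% O2, and each O2 level had normoxia controls of its own (95% air). All groups, hypoxic and normoxic, were grown in RPMI-1640 with 10% serum. Groups held 2 libraries each. The exception was the control of 22Rv1 at 0.2%, with 1 library used here, so that 24 PC-3 and 23 22Rv1 libraries were compared. Whether replicates came from separate cultures is not in the labels, and the p-values therefore cover only the spread between libraries, part or all of which may be technical. Each line stands for itself only, and a difference between them is a difference between 2 cell lines.

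miR-21 is transcribed from its own promoters inside the VMP1 gene, and its hairpin is cut by Drosha and then by Dicer into a short duplex. The arm from the 5′ side is the usual guide strand held by Argonaute, and it represses mRNAs such as that of the tumour suppressor PDCD4. The arm from the 3′ side is the passenger strand, most of which is normally degraded. miR-21 is high in many carcinomas, prostate cancer included, and its transcription is known to respond to STAT3 and AP-1 and, in some cell types, to hypoxia.

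The aligner is not given, so sequences alone do not settle which reads each count holds. For the passenger arm no mature sequence was at hand, and none is printed. Below are the sequences of the guide arm, of another miRNA and of the hairpin. They are RefSeq entries on GRCh38.p14, written 5′ to 3′. The capitals in the first and second lines mark the seed, bases 2 to 8, through which a miRNA finds its targets. In the hairpin line they mark the miR-21-5p arm.
hsa-miR-21-5p: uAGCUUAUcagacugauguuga
hsa-miR-590-5p: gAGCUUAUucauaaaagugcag
MIR21 hairpin: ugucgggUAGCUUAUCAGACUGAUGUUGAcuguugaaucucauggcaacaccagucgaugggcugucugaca
The hairpin of 72 bases lies at chr17:59841266-59841337 on the plus strand, and miR-21-5p is its bases 8 to 29. In GENCODE 29 on GRCh38 it lies inside VMP1 (chr17:59707192-59842255, plus strand), where it overlaps an exon of 1 retained-intron transcript and no annotated coding sequence or UTR. miR-590-5p, from chr7:74191213-74191234, is shown because it is the only other of 2370 mature human miRNAs in the RefSeq table with the same seed. Both sequences are identical at 8 of 22 positions, of which 1 lies outside the seed.

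The libraries held 1742290 to 4327382 counts in PC-3 and 960421 to 3181344 in 22Rv1. Levels below are in CPM, which are counts scaled by library size and by a TMM factor within the line. These factors ran from 0.92 to 1.07 in PC-3 and from 0.70 to 1.27 in 22Rv1. The CPM of a library therefore do not add up to the same total in all libraries and are not shares of its counts. A miRNA was tested where 2 or more libraries held at least 5 CPM of it. miR-210-3p, the best-known miRNA target of hypoxia-inducible factor, averaged 932 ± 96.8 CPM in hypoxic PC-3 against 574 ± 75.4 in normoxia (SD, n = 12 each). In 22Rv1 it averaged 2746 ± 454 CPM in hypoxia (n = 12) against 1346 ± 166 in normoxia (n = 11). On the first principal component 3 libraries of 22Rv1 stood apart, replicate 1 of 5% hypoxia, of its normoxia control and of 0.5% hypoxia. Some of the results that use them are given without them as well. In PC-3 replicate 1 of 5% hypoxia and replicate 1 of its control stood apart, and they held 1161 and 1247 CPM of the stromal miR-143-3p, against 27.8 CPM or less in the other libraries of that line. Without these 2 libraries the mean effects in PC-3 were -0.02 for miR-21-5p and -0.13 for miR-21-3p, and neither was called (adjusted p = 0.936 and 0.151, edgeR). Epithelial miRNAs were present in both lines but not the same ones. miR-200b-3p averaged 5296 CPM in hypoxic and 5578 in normoxic PC-3, against 70.0 and 57.5 in 22Rv1, whereas miR-200c-3p averaged 22.0 and 19.3 CPM in PC-3, against 26253 and 23999 in 22Rv1.

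miR-21-5p was the most abundant miRNA in PC-3 in all 24 libraries, with 136255 ± 13419 CPM in hypoxia and 137901 ± 13449 in normoxia (SD, n = 12 each). Its next neighbour there, miR-191-5p, averaged 102600 CPM over all libraries of the line. In 22Rv1 miR-21-5p averaged 10638 ± 848 CPM in hypoxia (n = 12) and 9863 ± 726 in normoxia (n = 11), and ranked 22nd over the line. It stood between miR-186-5p at 12528 ± 791 CPM and miR-27b-3p at 9934 ± 1694 CPM (SD, n = 23), and its difference from miR-27b-3p was within their spread. miR-21-3p, the passenger arm, averaged 9756 ± 1062 CPM in hypoxic and 10732 ± 916 in normoxic PC-3 (n = 12 each), which placed it 23rd over the line. In 22Rv1 it averaged 828 ± 271 CPM in hypoxia (n = 12) and 675 ± 57.3 in normoxia (n = 11). As a share of all counts in normoxia, the passenger arm of PC-3 was read about as often as the guide arm of 22Rv1. The CPM given here are scaled within each line and are not on the same scale between lines. With both lines scaled together, the passenger arm had 11048 CPM or more in normoxic PC-3. The guide arm had 9529 CPM or less in normoxic 22Rv1 on that scale.

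**Figure D1:**
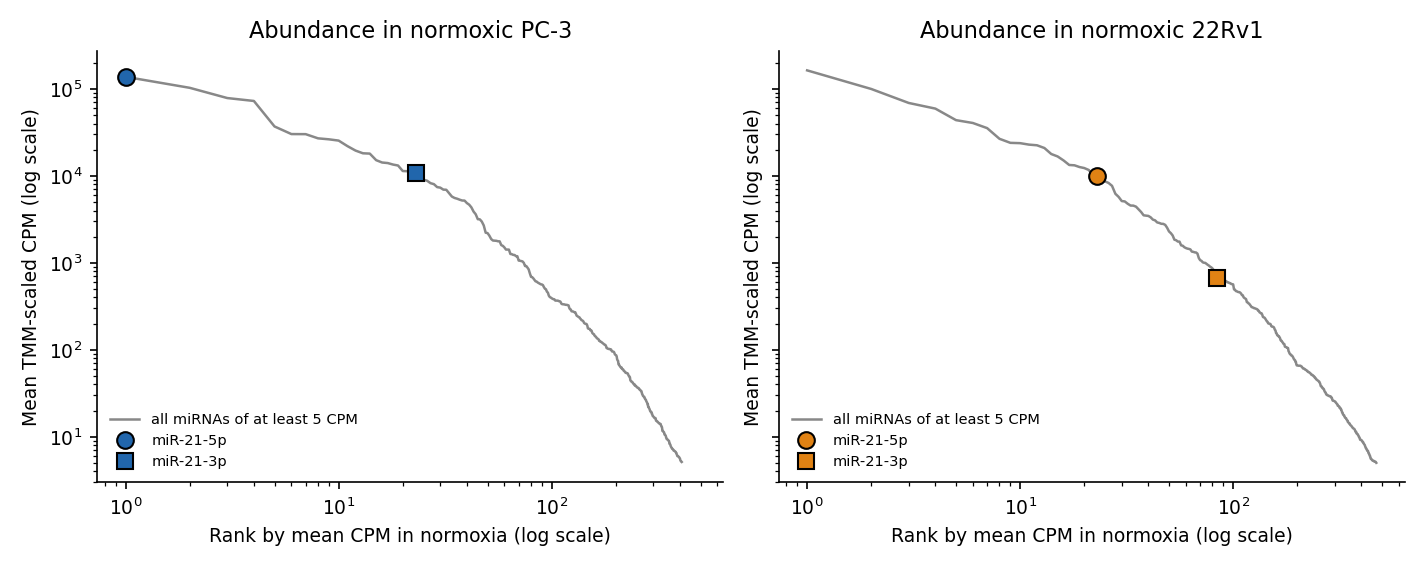
Mean TMM-scaled CPM in normoxia (log scale) against rank (log scale) for miRNAs of at least 5 CPM in PC-3 (left, 12 libraries) and 22Rv1 (right, 11 libraries), with both miR-21 arms marked. miR-21-5p is at rank 1 in PC-3 and 23 in 22Rv1, and miR-21-3p at rank 23 in PC-3 and 84 in 22Rv1.

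Between the lines, both arms were far higher in PC-3. As a share of all counts in normoxia, miR-21-5p took 12.5 to 15.7% of a PC-3 library (median 13.8%) against 0.623 to 1.26% of a 22Rv1 library (median 1.02%). miR-21-3p took 0.993 to 1.29% in PC-3 (median 1.08%) against 0.0446 to 0.0821% in 22Rv1 (median 0.0700%). No PC-3 library came near any 22Rv1 library for either arm. In a fit over all 47 libraries, PC-3 exceeded 22Rv1 by 4.23 on the log2 scale for miR-21-5p (SE 0.09, 18.8-fold, adjusted p = 1.7e-32) and by 4.44 for miR-21-3p (SE 0.11, 21.7-fold, adjusted p = 8.9e-31, edgeR's quasi-likelihood test, Benjamini-Hochberg over 613 miRNAs). Most miRNAs differed between the lines, 86% of those tested (39.6% higher and 46.3% lower in PC-3), and 52 were further up in PC-3 than miR-21-5p. Scaling by library size alone moved the median of all miRNAs by -0.46 and gave 3.76 and 3.98 for the arms.

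miR-21-5p was not called for hypoxia in PC-3 at any level. At 5% O2 it had 136863 and 131856 CPM in hypoxia against 134926 and 128873 in normoxia, and at 0% O2 138075 and 123578 CPM against 135476 and 122152. At every level the hypoxic and normoxic libraries overlapped, and hypoxia was the higher in 7 of 12 replicate pairs. The log2 fold changes by level, in the order 5, 2, 1, 0.5, 0.2 and 0% O2, were 0.03, -0.10, 0.02, -0.02, -0.04 and 0.02, each with an SE of 0.14. At these levels 0, 0.648, 0.648, 0.864, 1.51 and 2.81% of the 463 miRNAs tested were called. At 0% the 13 calls became 0 without replicate 1 of either group of that level, and 3 or 1 without replicate 2 of hypoxia or of the control. The mean effect on miR-21-5p was -0.02 (SE 0.06, adjusted p = 0.933, edgeR). Over the same libraries 51 of 463 miRNAs were called for the mean effect at an adjusted p below 0.05, or 11% (5.83% higher and 5.18% lower in hypoxia), and miR-210-3p had a mean log2 change of 0.70 (adjusted p = 1.1e-07, edgeR).

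miR-21-3p leaned lower in hypoxic PC-3 without passing the threshold. At 5% O2 it had 10259 and 10446 CPM in hypoxia against 10248 and 9486 in normoxia. At 2% O2 the values were 9885 and 9889 CPM in hypoxia against 11612 and 11242 in normoxia. At 1% O2 they were 10122 and 10184 CPM against 10279 and 10638. Both hypoxic libraries lay above their controls at 5% and below them at 2% and 1%. At 0.5% O2 the hypoxic libraries had 9342 and 11828 CPM against 12414 and 11731 in normoxia. At 0.2% O2 they had 9531 and 7456 CPM against 10207 and 10214. At 0% O2 they had 9602 and 8532 CPM against 11233 and 9479. At 0.2% the hypoxic libraries were again below both controls, while at 0.5% and 0% the ranges overlapped. Groups of 2 libraries often lie apart without any effect, and the share of all miRNAs that did so was not computed. In all, hypoxia was the lower in 9 of 12 replicate pairs.

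The level effects of miR-21-3p in PC-3 were 0.07, -0.21, -0.04, -0.19, -0.27 and -0.19 on the log2 scale in the order 5 to 0% O2 (SE 0.12 each), and the smallest adjusted p was 0.342, at 0.2%. Their mean was -0.14 (SE 0.05, adjusted p = 0.0687, edgeR). This stands at the edge of the threshold and its call depended on the settings. With replicate numbers as blocks the mean was -0.14 with an adjusted p of 0.00793 (edgeR, 109 miRNAs called), and 3 other alternatives also called it. Of the 24 fits that each left out 1 library 3 called it, those without replicate 1 of 0.2% hypoxia, replicate 2 of 0.5% hypoxia or replicate 2 of the 0% control.

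**Figure D2:**
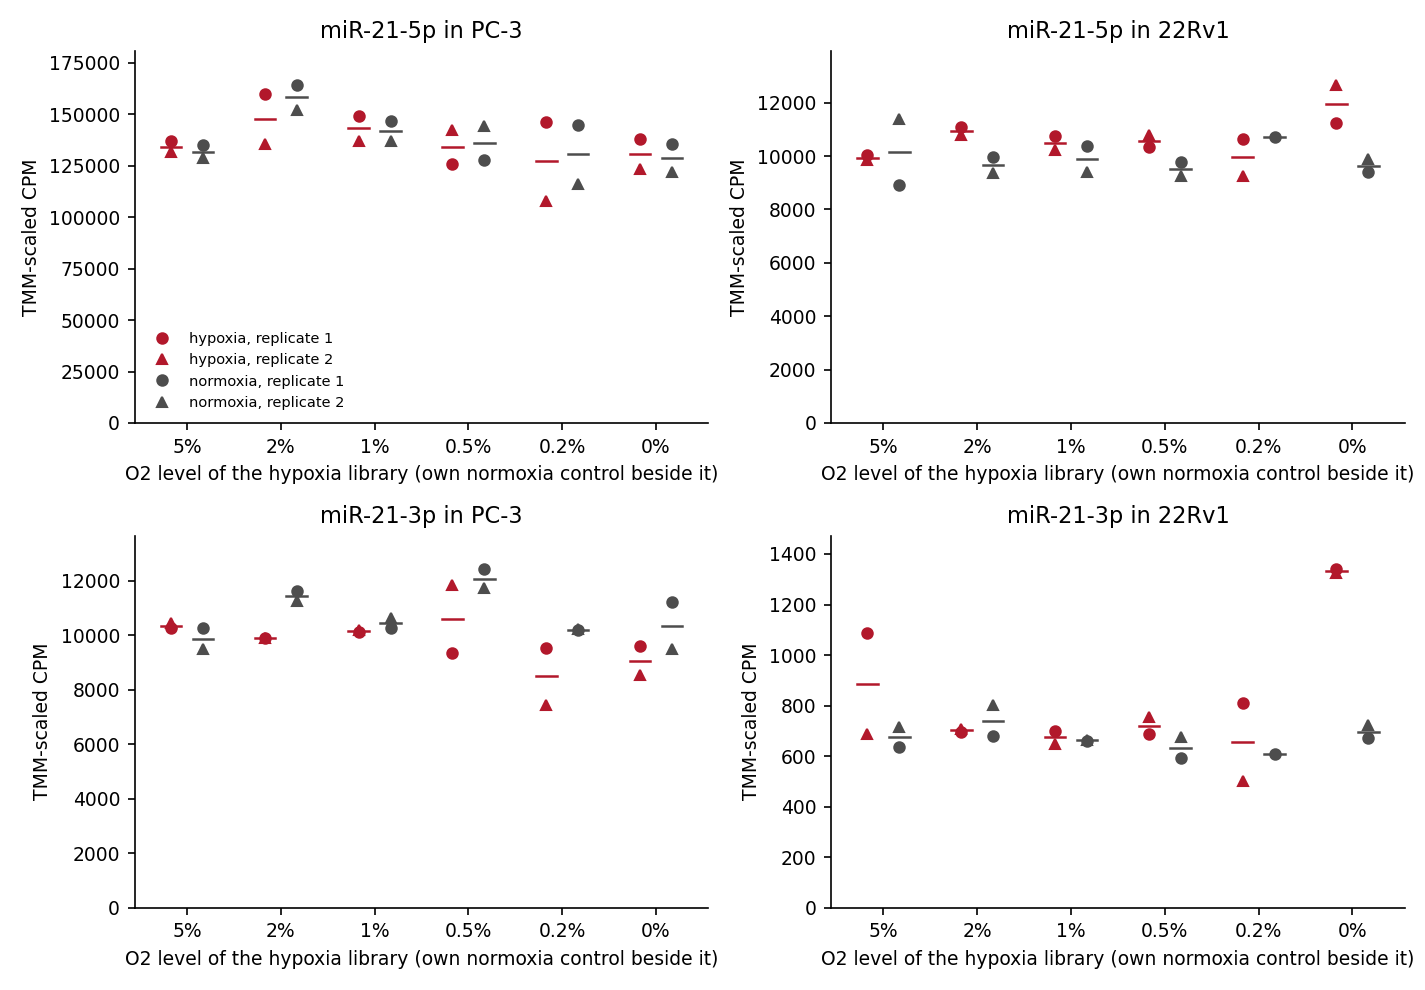
TMM-scaled CPM of miR-21-5p (top) and miR-21-3p (bottom) in each PC-3 (left) and 22Rv1 (right) library by O2 level, hypoxia in red and its own normoxia control in grey, with circles for replicate 1, triangles for replicate 2 and bars for group means. The hypoxic 22Rv1 libraries at 0% O2 hold 1339 and 1323 CPM of miR-21-3p, above every other library of that line.

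In 22Rv1, miR-21-5p was not called at any level either. At 0% O2, where it differed most, it had 11230 and 12677 CPM in hypoxia against 9401 and 9881 in normoxia. Both hypoxic libraries were above both controls there, and also at 2 and 0.5% O2, whereas at 0.2% both were below the single control. Such separation is frequent between groups of this size without any effect, most of all against a single control. The share of all miRNAs that lay apart in this way was not computed. The log2 fold changes in the order 5 to 0% O2 were -0.03, 0.18, 0.08, 0.15, -0.11 and 0.31, with SE from 0.16 to 0.19, and the adjusted p at 0% was 0.426 (edgeR). The mean effect was 0.10 (SE 0.07, adjusted p = 0.393, edgeR), with hypoxia the higher in 9 of 11 pairs. For the mean effect 75 of 552 miRNAs, or 13.6%, were called in this line, 7.61% higher and 5.98% lower in hypoxia. By level, in the same order, the share called was 0, 0.362, 0.725, 3.08, 0.906 and 4.71%. The 17 calls at 0.5% became 2 without hypoxic replicate 1, 36 without hypoxic replicate 2, and 6 or 2 without control replicate 1 or 2.

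miR-21-3p rose in 22Rv1 at 0% O2. It had 1339 and 1323 CPM in the hypoxic libraries against 671 and 722 CPM in their controls, from 2798 and 2996 counts against 1717 and 1993. The hypoxic pair exceeded the other 21 libraries of the line, both controls included. The change was 0.93 on the log2 scale (SE 0.21, 1.91-fold, adjusted p = 0.00767, edgeR), 1 of 26 calls at that level, or 4.71% of the miRNAs tested. Of these calls 19 were higher (3.44%) and 7 lower (1.27%) in hypoxia. By size it was the 14th highest of these 26, and miR-210-3p changed by 1.11 there (adjusted p = 1.5e-04). Each of the 4 libraries at 0% was needed for the call, and without 1 of them the level had 12 to 15 calls. The adjusted p was 0.0899 or 0.0538 without hypoxic replicate 1 or 2 and 0.121 or 0.0729 without control replicate 1 or 2, at changes of 0.88 to 0.99 (edgeR). Scaling by library size alone gave 0.78 with an adjusted p of 0.14 and moved the median of all miRNAs by -0.15.

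At the other levels miR-21-3p in 22Rv1 was not called. At 5% O2 it had 1086 and 688 CPM in hypoxia against 638 and 715 in normoxia, and at 2% O2 694 and 709 CPM against 679 and 801. At 1% O2 the values were 700 and 648 CPM in hypoxia against 661 and 664 in normoxia, and at 0.5% O2 687 and 755 CPM against 593 and 674. At 0.2% O2 it had 811 and 500 CPM against 608 in the single control. Both hypoxic libraries were above both controls only at 0.5%, a separation that is frequent between groups of 2. At the other levels of 5 to 0.2% the ranges overlapped. The level effects in the order 5 to 0.2% were 0.39, -0.08, 0.03, 0.19 and 0.11 on the log2 scale. The value of 0.39 at 5% rests on hypoxic replicate 1, a library of 1035470 counts, and became -0.03 without the 3 libraries that stood apart.

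The mean effect on miR-21-3p in 22Rv1 over the 6 levels was 0.26 on the log2 scale (SE 0.09, adjusted p = 0.0537, edgeR), with hypoxia the higher in 8 of 11 pairs. With replicate blocks it was 0.31 with an adjusted p of 0.00195 (164 miRNAs called). The mean of the 5 levels without 0% was 0.13 with an adjusted p of 0.525 (edgeR). The effect at 0% exceeded the mean of the other levels by 0.81 (SE 0.23, adjusted p = 0.132, edgeR), a contrast added after the values were seen, for which 4 of 552 miRNAs, or 0.725%, were called. With replicate blocks that difference was 0.76 with an adjusted p of 0.0157, and without the 3 libraries that stood apart it was 0.86 with an adjusted p of 0.0316 (edgeR). It was also called without hypoxic replicate 1 at 0.2% (adjusted p = 0.0147) or at 5% (adjusted p = 0.0374, edgeR). A linear trend over the 6 ordered levels was not called for either arm in either line. The largest slope was 0.10 per step toward lower O2, of miR-21-3p in 22Rv1 (SE 0.05, adjusted p = 0.77, edgeR).

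**Figure D3:**
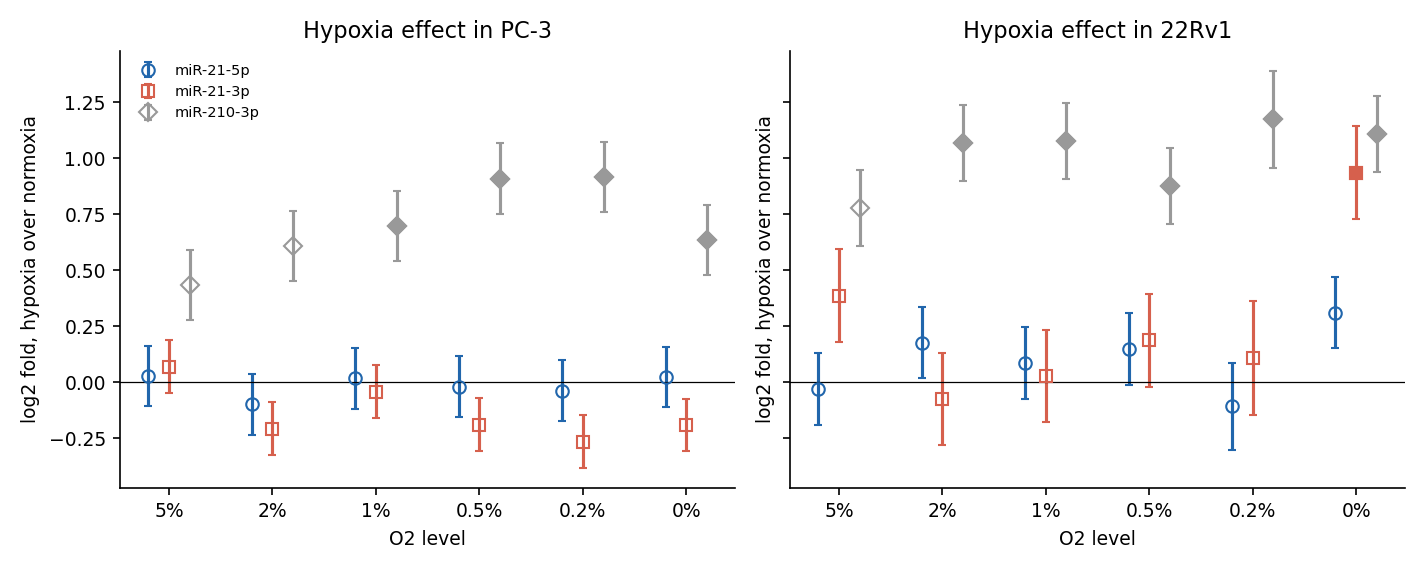
Log2 fold change of hypoxia over its own normoxia control at each O2 level for miR-21-5p, miR-21-3p and miR-210-3p in PC-3 (left) and 22Rv1 (right), with bars of 1 SE and filled symbols where the adjusted p is below 0.05 (edgeR). Of the miR-21 arms only miR-21-3p in 22Rv1 at 0% O2, at 0.93, is filled, beside miR-210-3p at 1.11.

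The response of miR-21-3p differed between the lines in the fit over all libraries. The mean hypoxia effect in PC-3 minus that in 22Rv1 was -0.42 on the log2 scale (SE 0.11, adjusted p = 0.026, edgeR), 1 of 18 calls among 613 miRNAs (2.94%), of which 15 were lower in PC-3 (2.45%). With replicate blocks it was -0.46 with an adjusted p of 4.4e-05 and 61 calls. This call was fragile. It was lost in 30 of 46 fits without 1 library and in 7 other alternatives. The mean over 5 levels without 0% gave -0.28 with an adjusted p of 0.302, and leaving out the pair of PC-3 libraries that stood apart gave -0.40 with an adjusted p of 0.117 (edgeR). At 0% O2 alone, added after the values were seen, the difference was -1.15 (SE 0.27, adjusted p = 0.00982, edgeR), 1 of 8 calls or 1.31%. That call was lost without 22Rv1 hypoxic or control replicate 1, PC-3 hypoxic replicate 1 or 2, or PC-3 control replicate 1 of that level, with adjusted p from 0.0549 to 0.138. For miR-21-5p the differences were -0.13 for the mean (SE 0.09, adjusted p = 0.606) and -0.31 at 0% (SE 0.23, adjusted p = 0.939, edgeR).

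The arm ratio, reads of miR-21-5p per read of miR-21-3p in the same library, does not depend on library scaling. It is a ratio of reads, which need not equal that of molecules. In PC-3 it ran from 12.04 to 16.2 in hypoxia (median 14.1) and from 10.3 to 14.3 in normoxia (median 13.0). In 22Rv1 it ran from 8.39 to 18.5 in hypoxia (median 14.7) and from 11.7 to 17.6 in normoxia (median 14.2). Between the lines, PC-3 minus 22Rv1, the ratio in normoxia differed by -0.21 on the log2 scale (SE 0.07, adjusted p = 0.0116, limma over 157 hairpins). Of all hairpins 61.8% were called in that comparison, and miR-21 was the median hairpin, 79th of 157.

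In hypoxic PC-3 the ratio leaned higher. At 0% O2 it was 14.4 and 14.5 in hypoxia against 12.1 and 12.9 in normoxia, and at 0.2% 15.4 and 14.5 against 14.2 and 11.4. At both levels the groups did not overlap, while at the other 4 they did. Groups of 2 libraries often lie apart without any effect, and the share of other hairpins that did so was not computed. The log2 changes of the ratio in the order 5 to 0% O2 were -0.04, 0.11, 0.06, 0.18, 0.23 and 0.21 (SE 0.13 each), with a lowest adjusted p of 0.434, at 0% (limma). Of 120 hairpins 0, 1.67, 2.5, 0, 0 and 0.833% were called at these levels, miR-21 at none. The ratio was higher in hypoxia in 10 of 12 pairs, with a mean log2 change of 0.12 (SE 0.05, adjusted p = 0.129, limma), for which 13.3% of the hairpins were called. The exact permutation test of this single value, two-sided with labels exchanged within levels, gave p = 0.0136 without adjustment, and the exact sign-flip test over pairs gave p = 0.0156. With replicate blocks the adjusted p was 0.0349 (limma), and without 0% O2 the exact permutation p was 0.0687. Leaving out replicate 1 of the 0.2% control gave an adjusted p of 0.0447 (limma).

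In 22Rv1 the ratio at 0% O2 was 8.39 and 9.58 in hypoxia against 14.0 and 13.7 in normoxia. The groups also lay apart at 2%, in the other direction, at 16.0 and 15.2 in hypoxia against 14.7 and 11.7. Hypoxic replicate 1 at 5%, at 9.24, lay between the hypoxic libraries of 0%, and every other library of the line was at 11.7 or more. The change at 0% was -0.63 on the log2 scale (SE 0.22, adjusted p = 0.148, limma), the 11th lowest of 139 hairpins, of which 3.6% were called. With replicate blocks the adjusted p was 0.0237 (limma). From 5 to 0.2% the changes were -0.38, 0.25, 0.06, -0.04 and -0.18, with SE of 0.22 and of 0.27 at 0.2%, and the share of hairpins called was 0, 0, 0, 0.719 and 0.719%. Without the 3 libraries that stood apart the change was -0.16 at 5% and -0.08 at 0.5%. The mean change over all levels was -0.15 (SE 0.09, adjusted p = 0.381, limma, 7.91% of hairpins called), and its exact permutation p was 0.169.

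The change of the ratio at 0% was 0.84 higher on the log2 scale in PC-3 than in 22Rv1 (SE 0.23, adjusted p = 0.0631, limma over 157 hairpins, 0.637% called). It passed the threshold with replicate blocks (adjusted p = 0.00574), with a 20 CPM filter (0.0423) and without the 3 libraries that stood apart (0.0226, limma). For the mean over levels the difference was 0.27 (SE 0.10, adjusted p = 0.192, limma, 1.27% called), and 0.32 with replicate blocks (adjusted p = 0.0095, limma).

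**Figure D4:**
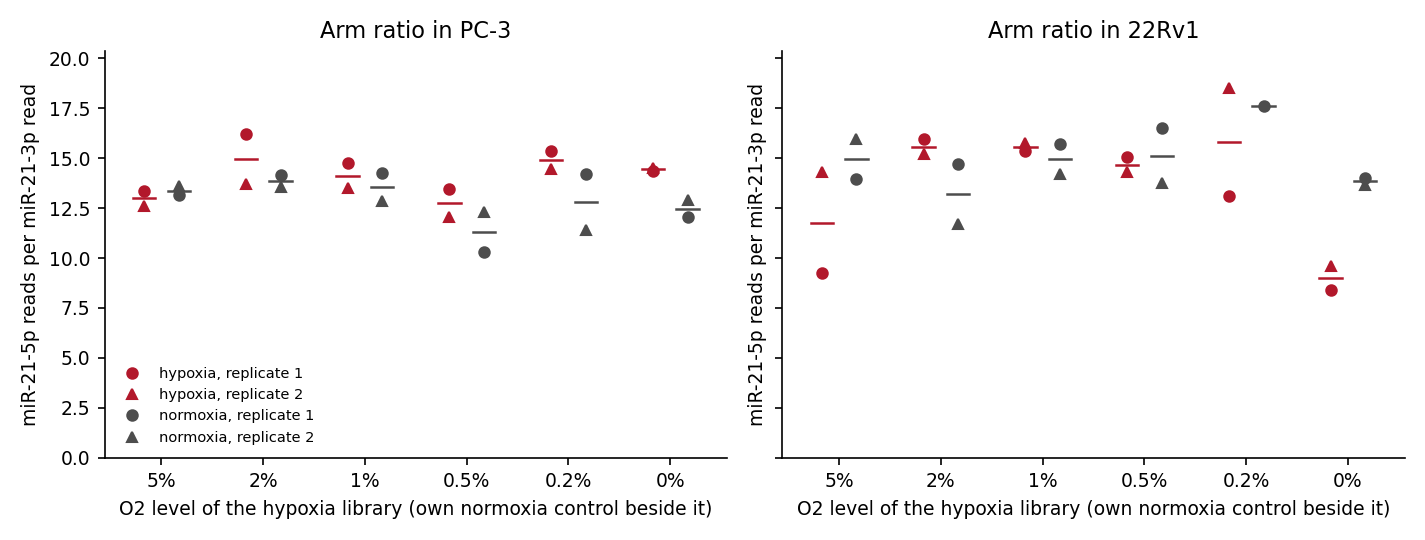
Reads of miR-21-5p per read of miR-21-3p in each PC-3 (left) and 22Rv1 (right) library by O2 level, hypoxia in red and its own normoxia control in grey, with bars for group means. In 22Rv1 the hypoxic libraries at 0% O2 lie at 8.39 and 9.58, and in PC-3 they lie at 14.4 and 14.5, above their controls.

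**Figure D5:**
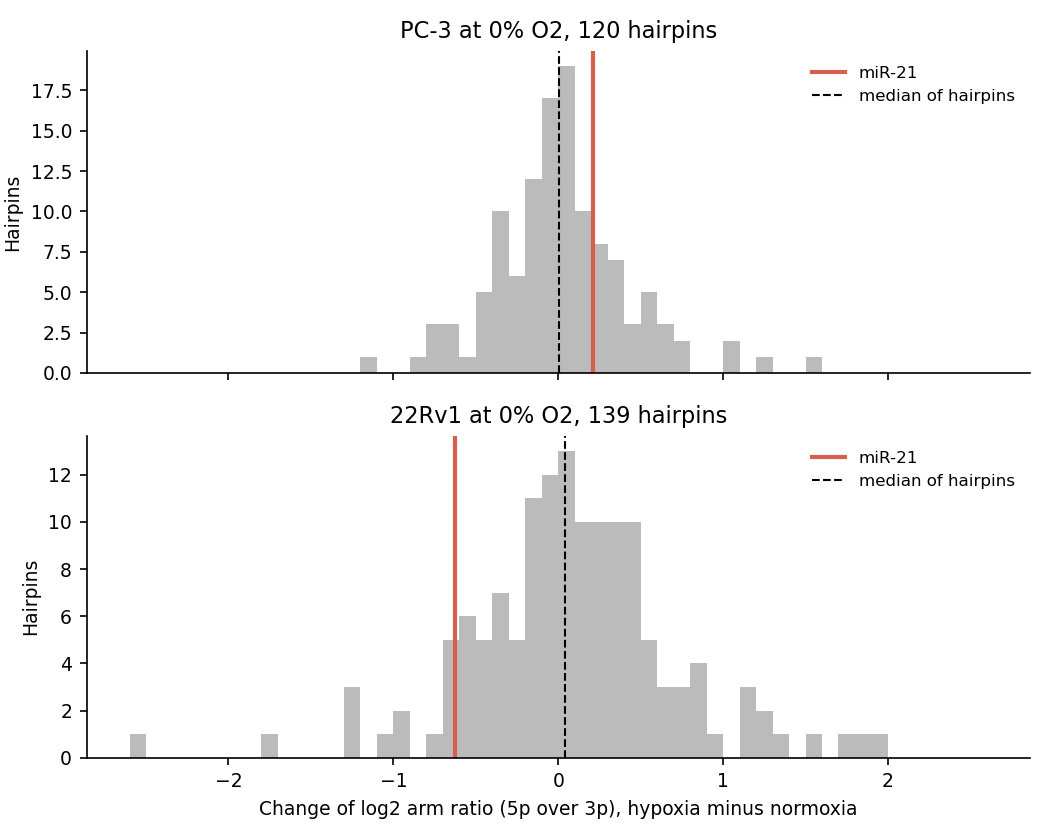
Number of hairpins by the change of their log2 arm ratio at 0% O2, hypoxia minus normoxia, in PC-3 (top, 120 hairpins) and 22Rv1 (bottom, 139 hairpins), in bins of 0.1, with miR-21 and the median marked. miR-21 is at 0.21 in PC-3 and at -0.63 in 22Rv1, inside the spread of the other hairpins in both.

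Neither arm was called for a difference between the 6 sets of normoxia controls. The overall test over the 6 control groups gave adjusted p = 1.00 for both arms in PC-3 and 0.996 for both in 22Rv1 (edgeR), with 0% of miRNAs called in each line. In normoxic 22Rv1 miR-21-3p stayed between 593 and 801 CPM. Within the line its SD in normoxia was 57.3 CPM (n = 11), against 271 in hypoxia (n = 12). The hypoxic SD pools all 6 O2 levels, with 1339 and 1323 CPM at 0% and 1086 CPM in replicate 1 at 5%.

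miR-590-5p, which shares the seed, was rare. It averaged 5.98 ± 1.94 CPM in hypoxic and 6.51 ± 1.91 in normoxic PC-3 (n = 12 each), and 12.9 ± 4.02 in hypoxic (n = 12) and 13.8 ± 1.89 CPM in normoxic 22Rv1 (n = 11). It was lower in PC-3, with PC-3 minus 22Rv1 at -0.65 on the log2 scale (adjusted p = 1.4e-04, edgeR), opposite in sign to miR-21-5p, and its mean hypoxia effect was not called in either line (adjusted p = 0.595 and 0.765).

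On chromosome 17, miR-301a and miR-454 are encoded on the minus strand, 690045 and 703394 bases from MIR21. Of 6 listed neighbours 4 were tested, and miR-142, a blood-cell miRNA, was too rare. All 4 were higher in PC-3 than in 22Rv1 in normoxia, by 0.27 to 0.84 on the log2 scale, against 4.23 for miR-21-5p, in a comparison where 39.6% of all miRNAs were higher. In hypoxic PC-3 1 fell, miR-454-3p, to 513 ± 27.6 CPM against 566 ± 36.1 in normoxia (-0.14, adjusted p = 0.0368, edgeR, n = 12 each), where 5.18% of all miRNAs were called lower. In 22Rv1 none was called, beside 13.6% of all miRNAs, and their median was -0.25 beside 0.01 over all miRNAs tested.

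Of 17 miRNAs reported to rise in hypoxia, 4 rose and none fell in PC-3, and 3 rose and none fell in 22Rv1, beside 5.83% higher and 5.18% lower of all miRNAs tested in PC-3 and 7.61% and 5.98% in 22Rv1. Besides miR-210-3p these were miR-30b-5p (0.30), miR-181c-5p (0.23) and miR-192-5p (0.22) in PC-3 and miR-23a-3p (0.34) and miR-27a-3p (0.27) in 22Rv1, as mean log2 changes. The list's median was 0.06 in PC-3 beside 0.00 over all miRNAs, and 0.17 in 22Rv1 beside 0.01. miR-21-5p, at -0.02 (SE 0.06) in PC-3 and 0.10 (SE 0.07) in 22Rv1, lay below the list's median in both lines, though by little in 22Rv1. miR-21-3p lay below that median in PC-3, at -0.14, and above it in 22Rv1, at 0.26.

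Of 8 miRNAs linked to STAT3, AP-1 or NF-kB, the factors also known to act on miR-21, 7 were tested in PC-3 and 8 in 22Rv1. None of them was called for the mean effect in either line, beside 11% and 13.6% of all miRNAs tested. At 0% O2 in 22Rv1 1 rose, miR-155-5p (1.22, adjusted p = 0.0493, edgeR), at a level where 4.71% of all miRNAs were called. Over the line it averaged 13.0 CPM in hypoxia and 9.23 in normoxia. Between the lines 5 of the 8 were higher and 3 lower in PC-3, among them miR-221-3p at 12154 CPM in hypoxic and 13173 in normoxic PC-3 against 23.4 and 21.4 in 22Rv1. Of 7 miRNAs linked to the androgen receptor, none was called for the mean effect in PC-3. Only miR-27a-3p rose in 22Rv1, where 7.61% of all miRNAs were called higher. In normoxia 2 of the 7 were higher and 4 lower in PC-3 than in 22Rv1. Between the lines 39.6% of all miRNAs were higher and 46.3% lower in PC-3, against which both counts stand. Of the 7 epithelial miRNAs none was called for the mean hypoxia effect in either line, beside 11% of all miRNAs in PC-3 and 13.6% in 22Rv1.

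Markers of other cell types (13 of 15 in the table) summed to 285 to 1537 CPM in hypoxic PC-3 and 328 to 1593 in normoxic PC-3. In 22Rv1 they summed to 1169 to 3870 CPM in hypoxia and 1695 to 3215 in normoxia, mostly miR-486-5p. At 0% in 22Rv1, where miR-21-3p rose, the sums were 2494 and 1941 CPM in hypoxia against 2029 and 1786 in normoxia. Among the stromal and muscle markers, miR-143-3p reached 1247 CPM in PC-3 and 578 in 22Rv1, where its highest library was replicate 1 of 0.5% hypoxia, while miR-145-5p stayed at or below 6.66 CPM in PC-3 and 4.50 in 22Rv1. The blood markers differed. miR-451a stayed at or below 1.56 CPM in PC-3 and 7.03 in 22Rv1, whereas miR-486-5p reached 340 CPM in PC-3 and 3182 in 22Rv1. Of 9 markers tested in PC-3, 2 were called higher in hypoxia and none lower, beside 5.83% higher and 5.18% lower of all miRNAs. These were the muscle miRNAs miR-1-3p (0.68, adjusted p = 0.0469) and miR-133a-3p (1.23, adjusted p = 8.9e-04, edgeR), at 7.53 and 4.18 CPM in hypoxia against 4.80 and 1.82 CPM in normoxia. In 22Rv1 none of 6 tested was called, beside 13.6% of all miRNAs. Their part in the result was not tested.

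The patterns most like each arm over the 12 group means of a line, by Pearson correlation of log2 CPM, are a description of libraries that share depth and scaling. For miR-21-5p they were miR-361-5p (0.78), miR-641 (0.72) and miR-374b-5p (0.72) in PC-3 and miR-320b (0.81), miR-196a-5p (0.77) and miR-664a-3p (0.76) in 22Rv1. For miR-21-3p they were miR-486-5p (0.89), miR-20a-5p (0.85) and miR-221-5p (0.83) in PC-3 and miR-141-5p (0.85), let-7i-5p (0.83) and miR-1246 (0.81) in 22Rv1. The other arm of the same hairpin was not among them: the correlation of the arms was 0.51 in PC-3 and 0.63 in 22Rv1.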

How the data were processed

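The deposited counts are whole reads for each mature miRNA. A second table of CPM scaled by the authors with TMM, per the file headers, equals the counts times 1 constant per library and was used only for its scaling factors. Per the submitters' processing notes, FastQC and hg19 were used. The aligner is not given in the sources used here.

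Counts were fitted in R 4.3.3 with edgeR 4.0.16 (robust quasi-likelihood, TMM, 1 mean per group, a minimum of 5 CPM in 2 or more libraries, which left 463 miRNAs for PC-3, 552 for 22Rv1 and 613 for the joint fit), and p-values were adjusted by Benjamini-Hochberg over all miRNAs tested, with 0.05 as threshold. Fitted biological variation was 15.3% for PC-3 and 17.7% for 22Rv1. In the 22Rv1 0.2% control the lone library was assumed to vary like the other groups. Arm ratios, log2 of 5p over 3p counts with a pseudocount of 0.5, were fitted by limma 3.58.1 over all hairpins with both arms tested. DESeq2 1.42.0 was an alternative. All tests were two-sided. The fits were also run on simulated counts, which had a common spread for all miRNAs and no replicate pairing, unlike the data. No result given here rests on that simulation.

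Replicate numbers are shared by hypoxia and control libraries. Their deviations correlated at 0.301 to 0.671 over 6 levels in PC-3 and 0.112 to 0.408 over 5 levels in 22Rv1, all above 0.1. From the data and not from the labels, the numbers were taken as pairs in the pair counts, sign-flip tests and replicate blocks. Neither pair counts nor the separation of groups were computed over all miRNAs or hairpins. The main fits, and all adjusted p-values given without mention of blocks, left this pairing out. No 2 replicates agreed within sampling noise (chi-square per degree of freedom at least 25.2).

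The members and the lists were chosen with earlier results of these data known. miRNAs named are both arms, miR-210-3p, up to 4 members per list, abundance neighbours and the 3 most alike patterns among miRNAs of at least 20 CPM. miR-143-3p, miR-145-5p, miR-451a, miR-486-5p as a marker, and the list members given as levels between the lines, were chosen after their values were seen.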

Additional observations from a re-analysis of the deposited data

Results flagged for a closer look

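The hypoxia effect on miR-21-3p differed between PC-3 and 22Rv1 by the test of the difference itself, for the mean over levels (-0.42 on the log2 scale, PC-3 minus 22Rv1, adjusted p = 0.026) and at 0% O2 (-1.15, adjusted p = 0.00982, edgeR). In PC-3 miR-21-3p had 9602 and 8532 CPM in hypoxia at 0% O2 against 11233 and 9479 in normoxia, and in 22Rv1 1339 and 1323 CPM against 671 and 722. The call for the mean was lost in 30 of 46 fits without 1 library and in 7 other alternatives, and that at 0%, a contrast chosen after the values were seen, in 5 fits without 1 library. Groups of 2 libraries are too small for a test of single libraries that stand far from the others.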

How the results depend on the processing

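Precision is set by groups of 2 libraries and by the spread between libraries, a fitted biological variation of 17.7% in 22Rv1. The counts of miR-21-3p in the 22Rv1 libraries at 0% O2 were 1717 to 2996. Counts are of reads, which need not be independent molecules. Settings tried were a filter of 20 CPM, DESeq2's size factors and Wald test, library size alone, the authors' scaling factors, scaling without both arms, other pseudocounts, replicate blocks and leaving out libraries. Values of line differences are PC-3 minus 22Rv1, and all changes are on the log2 scale. Without the single 0.2% control of 22Rv1 that level, the mean of the line, the line difference of the mean and the lines in normoxia have no value. The mean without 0%, both contrasts at 0% and the omission of the 3 libraries that stood apart were chosen after seeing the data.

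Replicate blocks, with pairs of hypoxia and control libraries, moved 7 results across the threshold and changed no other call of the miR-21 arms or their ratio. For miR-21-3p these were the mean in PC-3 (-0.14, adjusted p = 0.00793) and in 22Rv1 (0.31, 0.00195) and 0% against the other levels in 22Rv1 (0.76, 0.0157, edgeR). For the ratio they were the mean in PC-3 (0.12, 0.0349), 0% in 22Rv1 (-0.63, 0.0237), and the line difference of the mean (0.32, 0.0095) and at 0% (0.84, 0.00574, limma). The blocks also raised the calls over all miRNAs to 109 for the mean in PC-3, 164 in 22Rv1 and 61 for the line difference, and over all hairpins to 24 in 22Rv1 and 6 for the line difference.

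The line difference of the mean of miR-21-3p missed the threshold at -0.39 with the 20 CPM filter (adjusted p = 0.0642) and with DESeq2's size factors (0.0541), -0.36 by library size (0.0811), -0.28 without 0% (0.302), -0.38 with scaling without both arms (0.0812), -0.40 without replicate 1 of 5% in PC-3 (0.117) and -0.32 without the 3 libraries apart (0.102). Without the 3 libraries apart the contrast of 0% with other levels in 22Rv1 was 0.86 and the line difference of the ratio at 0% 0.84, both called, the second also at 20 CPM (0.84). The mean of miR-21-3p in PC-3 was called at -0.14 with 20 CPM, -0.13 by DESeq2 and -0.18 by library size, and its change at 0% in 22Rv1 was not called at 0.78 by library size. The ratio's mean in PC-3 was 0.12, with an adjusted p of 0.129 (limma). Its unadjusted p was 0.0136 by exact permutation and 0.0156 by exact sign flips of pairs.

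Signs turned in values that were called neither here nor above. By library size miR-21-3p in 22Rv1 was at 0.040, -0.076 and -0.17 at 2, 1 and 0.5% O2, and at 1% it was -0.0036 with DESeq2's factors and its Wald test and -0.033 with the authors' factors. Without the 3 libraries apart it was -0.028 at 5%. By library size miR-21-5p in 22Rv1 was at 0.0013, -0.016 and -0.22 at 5, 1 and 0.5%, with a trend of -0.013, and in PC-3 at -0.034, -0.020 and -0.070 at 5, 1 and 0%, with a trend of -0.0043. With the authors' factors it was -0.039, 0.039 and -0.10 at 1, 0.5 and 0% in PC-3, with a trend of -0.033, with DESeq2's factors or test 0.0059 at 0.5%, and without replicate 1 of 5% -0.0080 at 5%. Library size moved the median of all miRNAs in 22Rv1 by 0.11, -0.10, -0.37 and -0.15 at 2, 1, 0.5 and 0%, and the authors' factors moved it in PC-3 by -0.13 at 0.2 and at 0%.

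Calls over all miRNAs for the line difference numbered 11 at 20 CPM, 7 by library size, 9 without 0% and 9 without the 3 libraries apart, and 46 for the mean in 22Rv1 by library size. Over hairpins the line difference gave 1 call without 0%, 4 with a pseudocount of 5 and 4 without the 3 libraries apart, the lines in normoxia 62 at 20 CPM and the mean in 22Rv1 3 without 0%.

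Leaving out 1 library at a time gave ranges as follows. For miR-21-3p the line difference ran from -0.53 to -0.32 for the mean and from -1.35 to -1.03 at 0%. In 22Rv1 it ran from 0.19 to 0.31 for the mean, 0.74 to 0.89 for 0% against other levels, -0.15 to 0.047 at 2%, -0.048 to 0.080 at 1%, -0.28 to 0.42 at 0.2% and 0.88 to 0.99 at 0%, with 0.023 to 0.65 at 5%, and in PC-3 from -0.17 to -0.11 for the mean, -0.0037 to 0.10 at 5%, -0.37 to -0.044 at 0.5%, -0.45 to -0.11 at 0.2% and -0.27 to -0.062 at 0%. For miR-21-5p it ran in PC-3 from -0.033 to 0.053, -0.22 to 0.0094, -0.055 to 0.089, -0.12 to 0.067, -0.28 to 0.16 and -0.025 to 0.10 in the order 5 to 0%, from -0.055 to 0.018 for the mean and -0.017 to 0.023 for the trend, and in 22Rv1 from -0.17 to 0.14 at 5%. For the ratio it ran from 0.22 to 0.33 for the line difference of the mean and 0.74 to 0.93 at 0%, in PC-3 from 0.097 to 0.15 for the mean, -0.012 to 0.23 at 2%, -0.016 to 0.13 at 1% and 0.069 to 0.39 at 0.2%, and in 22Rv1 from -0.69 to -0.060 at 5%, -0.012 to 0.13 at 1%, -0.17 to 0.094 at 0.5% and -0.43 to 0.071 at 0.2%. The line difference had 9 to 37 calls over miRNAs and 1 to 4 over hairpins, and the mean in 22Rv1 5 to 16 over hairpins. Calls over miRNAs at single levels ran from 0 to 16 in PC-3 at 0%, and in 22Rv1 from 2 to 36 at 0.5% and 12 to 27 at 0%, while the other settings gave 8 to 37, 4 to 107 and 9 to 51. The ratio's line difference at 0% was called without either hypoxic 22Rv1 library at 0.2% or at 5%, and that of the mean without hypoxic replicate 2 at 5%. The mean of miR-21-3p in 22Rv1 was called without hypoxic replicate 2 at 0.2% (adjusted p = 0.00968) or at 5% (0.0184, edgeR). The cause of these differences was not tested.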
